A study of Mus musculus with 20 samples.

Results

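The 10 genes described here encode enzymes and transporters of the glutathione and thioredoxin antioxidant systems of the mouse: Gpx1, Gpx3, Gpx4, Prdx1, Txn1, Txnrd1, Gclm, Srxn1, Nqo1 and Slc7a11. They were taken by name from the scRNA-seq tables, where all 10 were found among 15855 genes of the cultured cells and among 15333 genes of the tumor cells. The study asked whether cancer turns B-cell precursors into macrophages (B-MF) and how these differ from monocyte-derived macrophages (Mo-MF). B-MF were grown from sorted B cells of mouse bone marrow (BM), and Mo-MF from BM monocytes, both in medium conditioned by 4T1.2 mammary cancer cells (4T1.2-CM). For B-MF the medium was used at 50% for 7 days. Each culture type had 2 libraries. Tumor cells labelled as macrophages were sorted from 4 mice with 4T1.2 cancer and gave 4 libraries, numbered 2 to 5 in the table. ATAC-seq, which maps open chromatin, covered 12 libraries of mice without cancer, in which BM and spleen each gave 3 of CSF1R+ cells and 3 of CSF1R- cells. The study describes these as B-cell precursors, while the labels call them macrophages. The mice were young females, and the strain behind each scRNA-seq library is not given in the labels.

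Cells keep peroxides low with 2 linked systems that draw their electrons from NADPH. In the glutathione system, the cystine carrier encoded by Slc7a11 and the glutamate-cysteine ligase, whose modifier subunit is encoded by Gclm, supply the tripeptide that glutathione peroxidases (Gpx1, Gpx3, Gpx4) oxidize to reduce peroxides. In the thioredoxin system, thioredoxin reductase (Txnrd1) reduces thioredoxin (Txn1), which in turn reduces peroxiredoxins such as Prdx1, and sulfiredoxin (Srxn1) rescues over-oxidized peroxiredoxins. Many of these genes, with the quinone reductase gene Nqo1, are textbook targets of the transcription factor NRF2, which binds antioxidant response elements, and Slc7a11 is also a target of ATF4, a factor of the amino acid response.

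Levels are mean corrected counts per cell, where corrected counts are the 10x counts that the authors brought to a shared depth with SCTransform. Cell numbers ranged from 4846 to 5389 in the culture libraries and from 2318 to 3180 in the tumor libraries. Median corrected counts per cell were 18350 to 19469 in culture and 7651 to 8266 in tumor. B-MF 2 had a median of 3400.5 detected genes per cell, against 3874 in B-MF 1, 3864 in Mo-MF 1 and 3773 in Mo-MF 2. The part of this in the levels was not tested. The tables were normalized separately, so no test was made between culture and tumor. Libraries shared at most 14 cell barcodes. Macrophage markers were present in every culture library. Cluster 3, with 1140 and 1209 cells in the Mo-MF libraries, raised 3 of the 8 macrophage markers and met no marker list, so it is not named. Clusters 7 and 9, called neutrophil-like here, held 9.97% and 9.13% of Mo-MF cells, against 0.0573% and 0% of B-MF cells. Cluster 9 also met the macrophage and basophil/mast lists. Cluster 6, which held 272 and 197 B-MF cells and 161 and 140 Mo-MF cells, met the macrophage, B and basophil/mast lists, although Mcpt8, Cpa3, Ms4a2 and Fcer1a were at 0 in both B-MF libraries. At a clustering resolution of 1, a cluster of 285 and 210 B-MF and 152 and 137 Mo-MF cells was led by Malat1 and mitochondrial genes, with no B or basophil/mast marker raised, and its overlap with cluster 6 was not counted. Cluster 6 is therefore not named, leaving it out may remove macrophages, and values are also given with it kept. Cluster 13, with 16 cells in each Mo-MF library, met the neutrophil lists and others and was not named. The summed level of the 5 neutrophil markers was 146 and 117 in Mo-MF, against 1.06 and 0.724 in B-MF, where 2 and 3 of the 5 were under 0.01. Among the sorted tumor cells, neutrophil-like clusters held 36.9% to 63.1% of a library and monocyte/macrophage-like clusters 30.8% to 60.1%, against the macrophage label. The neutrophil markers summed to 440 to 773 and the 8 macrophage markers to 7.22 to 19.1 per cell in these libraries.

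The starts of 5 of these genes carry letters of 3 short motifs that bear on the background above, and their stretches are shown to place the motifs before the values. Windows from 250 bases before to 50 after each RefSeq gene start (build GRCm38.p6) were searched on both strands for the antioxidant response element core TGACNNNGC, the AP-1 core TGANTCA and the ATF4 element core TGATGNAA. The first of these was found at 4 of the 10 genes (Prdx1, Txnrd1, Gclm and Srxn1), against 13.99% of 27025 genes. The AP-1 core was found at 2 genes (Prdx1 and Srxn1), against 8.97% of genes, and the ATF4 element core at 1 gene (Slc7a11), against 4.51%. Capitals mark the motif letters, each line runs 5′ to 3′ on the strand of the gene, and 1 antioxidant core of Prdx1 overlaps an AP-1 core.

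Prdx1, chr4:116685349-116685499, plus strand: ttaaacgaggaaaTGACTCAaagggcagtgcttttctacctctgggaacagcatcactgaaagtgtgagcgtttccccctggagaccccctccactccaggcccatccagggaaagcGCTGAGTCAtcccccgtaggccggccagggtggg
Txnrd1, chr10:82859089-82859147, plus strand: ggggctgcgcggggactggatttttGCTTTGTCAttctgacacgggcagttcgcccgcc
Gclm, chr3:122245398-122245456, plus strand: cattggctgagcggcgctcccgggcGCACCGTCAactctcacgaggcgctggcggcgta
Srxn1, chr2:152105397-152105510, plus strand: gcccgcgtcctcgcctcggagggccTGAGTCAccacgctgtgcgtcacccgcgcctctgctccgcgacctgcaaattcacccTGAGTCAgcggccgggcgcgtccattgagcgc
Slc7a11, chr3:50443628-50443704, minus strand: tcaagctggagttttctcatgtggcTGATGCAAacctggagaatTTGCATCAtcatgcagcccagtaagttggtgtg

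In Prdx1 the antioxidant core begins 133 bases before the start, in Gclm 134 bases and in Txnrd1 92 bases, each time on the opposite strand of the gene. The Txnrd1 stretch belongs to the second of 3 listed starts, and the first of them had no peak in any ATAC-seq library. The antioxidant core of Srxn1, GCTAGGTCA, lies after the start (chr2:152105552-152105560) and is therefore not part of the stretch above. Slc7a11 holds the ATF4 core in both orientations, beginning 66 and 47 bases before its start. A match of letters does not show that a factor binds there.

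Of the 10 genes, Gpx3 separated the cultures the most and was higher in B-MF, whereas Txn1, Srxn1 and Gpx1 were lower in B-MF. Slc7a11 was also lower, with a limit given below, and Gpx4, Prdx1 and Gclm did not pass the test. The comparison used limma on log2 of the mean corrected count per cell plus 0.1 in each library, and tested the 8633 genes whose mean reached 0.1, with p-values adjusted over all of them by Benjamini-Hochberg. Nqo1 was under this level, so 9 members were tested. Of these, 2 were called higher in B-MF, where 22.6% of all genes tested were, and 4 were called lower, where 16.9% of all genes were. Both B-MF libraries lay above both Mo-MF libraries for 4 members, against 40.0% of all genes, and below them for 4 members, against 29.6%. Slc7a11, among those called lower, reached the minimum level through Mo-MF alone, so its call is no support. The share of members called higher was near that of all genes, and the count of members was not itself tested. Mitochondrial counts made up 8.02% and 7.76% of a cell in the B-MF libraries, against 5.10% and 5.26% in the Mo-MF libraries. With cells at a mitochondrial share of at most 15% alone, Gpx3 stood at 2.22, Txn1 at -0.69, Srxn1 at -0.46 and Gpx1 at -0.20, all called. Slc7a11 stood at -1.09, and its call is again no support. Txnrd1 lost its call (limma adjusted p = 0.0598), although its log2 difference stayed at 0.15. Nothing in the labels says that the 2 libraries of a type came from separate cultures. The p-values therefore rest only on the spread between these libraries, which limma shares in part across all genes tested. The SE of Gpx4 was 0.049 in the main fit and 0.022 with a minimum mean of 1, at the same log2 difference.

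**Figure D1:**
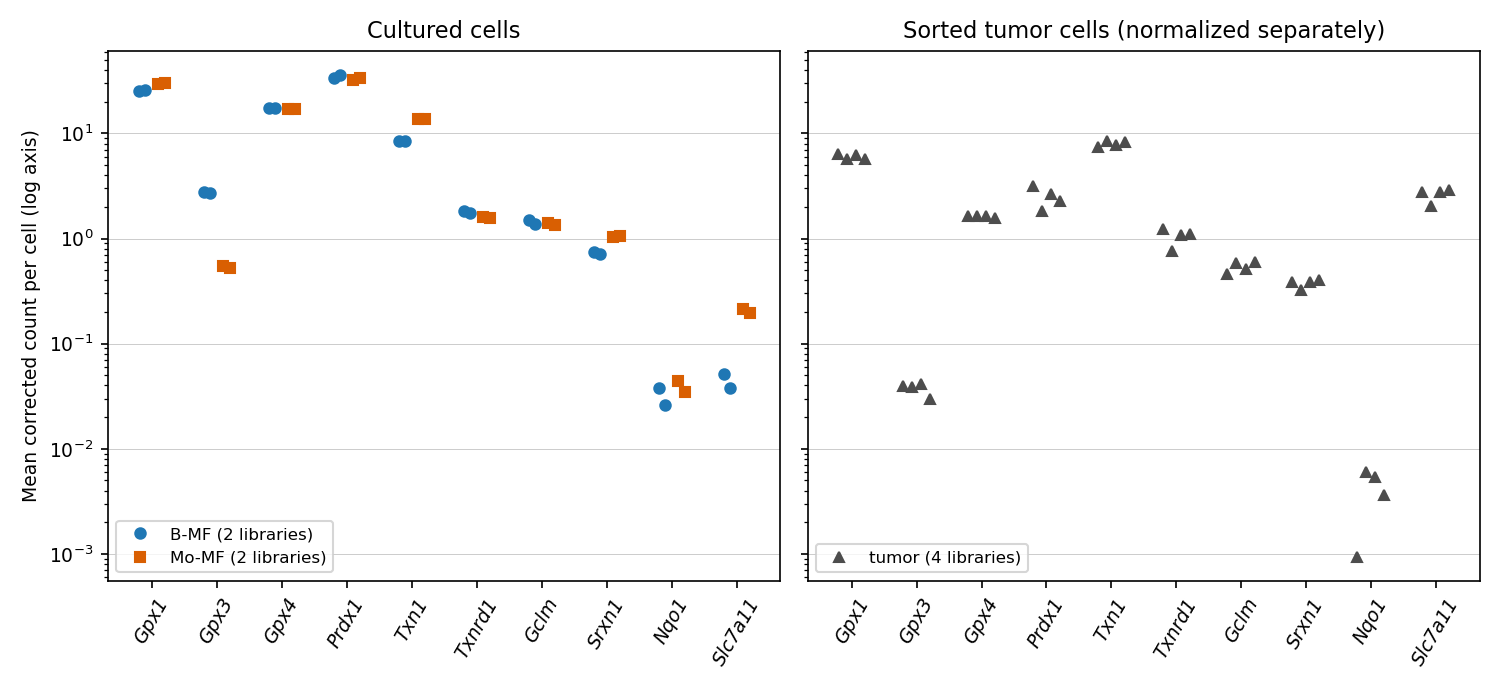
Mean corrected count per cell (log axis) of each gene in the 2 B-MF and 2 Mo-MF libraries (left) and in the 4 tumor libraries (right), 1 point per library. Gpx3 lies at 2.80 and 2.72 in B-MF, at 0.546 and 0.530 in Mo-MF and at or under 0.041 in every tumor library, while Slc7a11 lies between 2.04 and 2.89 in tumor and at or under 0.211 in culture. The panels were normalized separately.

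Among the glutathione peroxidases, Gpx3, the secreted form of the family (chr11:54902453-54910377), had a mean corrected count of 2.80 and 2.72 in B-MF, against 0.546 and 0.530 in Mo-MF. The groups did not overlap, and the ratio of their means was 5.13. The log2 difference was 2.16 (SE 0.05, 95% confidence interval 2.05 to 2.28, limma adjusted p = 5.73e-08). Its size depended on the scale, at 1.29 with a pseudocount of 1 and 1.06 with means of ln values, and the interval does not cover this. A count of Gpx3 was seen in 76.5% and 72.8% of B-MF cells and in 32.7% and 31.7% of Mo-MF cells. Among clusters with at least 20 cells in a library, it was highest in cluster 1, a B-MF cluster led by Cdkn2a and Myc, at 3.69 and 3.74, and stood at 2.10 and 2.09 in cluster 0, a B-MF cluster led by Pf4 and Egr1. In the 3 largest Mo-MF clusters it ranged from 0.37 to 0.57. In cycling cluster 5, which held cells of all 4 libraries, it stood at 2.63 and 2.45 in B-MF cells and at 0.56 and 0.42 in Mo-MF cells. In cluster 6, which also held cells of all 4 libraries, the gap was smaller, at 1.39 and 1.63 in B-MF cells and at 0.957 and 1.14 in Mo-MF cells.

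Gpx1, the cytosolic peroxidase (chr9:108338903-108340343), had means of 25.3 and 26.1 in B-MF, against 29.7 and 30.01 in Mo-MF. The Mo-MF libraries were both higher, with a log2 difference of -0.21 (SE 0.05, limma adjusted p = 0.0109). This call was lost without either Mo-MF library, although the log2 difference was -0.22 without Mo-MF replicate 1 and -0.21 without replicate 2. Gpx1 varied more between clusters of 1 culture than between the cultures. It stood at 44.996 and 46.7 in cluster 3 of Mo-MF, led by Arg1 and Fn1, and at 20.9 and 20.3 in cluster 4 of Mo-MF, led by Ly6a. Gpx4, which reduces lipid peroxides within membranes (chr10:80047166-80056439), had means of 17.6 and 17.4 in B-MF, against 17.1 and 17.0 in Mo-MF. Its log2 difference was 0.04 (95% confidence interval -0.07 to 0.16, limma adjusted p = 0.540), an interval that holds only small differences. In the 2 largest B-MF clusters and the 3 largest Mo-MF clusters Gpx4 ranged from 16.4 to 18.2.

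In the thioredoxin system, Txn1 (chr4:57943373-57956411) was lower in B-MF, at 8.51 and 8.46, than in Mo-MF, at 13.8 and 13.7. The log2 difference was -0.69 (SE 0.05, limma adjusted p = 1.64e-05). Neutrophil-like cells held 15.9% and 15.2% of the Txn1 counts of the Mo-MF libraries. Without clusters that met markers of another cell type, cluster 6 included, the means were 8.58 and 8.51 against 13.0 and 13.0, and the log2 difference was -0.60 (limma adjusted p = 3.46e-05), and without clusters 7 and 9 alone it was -0.59 (limma adjusted p = 3.92e-05). The large Mo-MF clusters 2, 3 and 4 had Txn1 at 9.63 to 16.1, above clusters 0 and 1 of B-MF at 6.83 to 9.42.

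Txnrd1, which reduces Txn1 (chr10:82833951-82897712), had means of 1.81 and 1.75 in B-MF, against 1.608 and 1.58 in Mo-MF, a small difference in the other direction. Its log2 difference was 0.15 (SE 0.05, limma adjusted p = 0.0441), with the adjusted p just under the threshold. It did not pass in several alternatives, among them the one without the clusters that met a list of another cell type (0.14, limma adjusted p = 0.0871). Prdx1 (chr4:116685544-116700822) had means of 33.6 and 36.1 in B-MF, against 32.1 and 33.3 in Mo-MF. The groups lay close together, with a log2 difference of 0.09 (95% confidence interval -0.04 to 0.22, limma adjusted p = 0.244). Within each culture the clusters differed far more. Prdx1 stood at 46.1 and 52.8 in cluster 1 and at 20.8 and 23.2 in cluster 0 of B-MF, and at 53.5 and 58.5 in cluster 3 and 22.2 and 23.8 in cluster 2 of Mo-MF. Single cells reached 688 corrected counts of Prdx1 in B-MF 2, and cell means were above cell medians (23 and 25 in B-MF, 24 in both Mo-MF libraries). Srxn1 (chr2:152105516-152111376) was lower in B-MF, at 0.738 and 0.709, than in Mo-MF, at 1.04 and 1.05, with a log2 difference of -0.47 (SE 0.05, limma adjusted p = 1.81e-04), which was -0.25 with a pseudocount of 1 and -0.21 with means of ln values. It was highest in cluster 3 of Mo-MF, at 1.71 in both libraries, the cluster where Prdx1 and Gpx1 were also high.

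**Figure D2:**
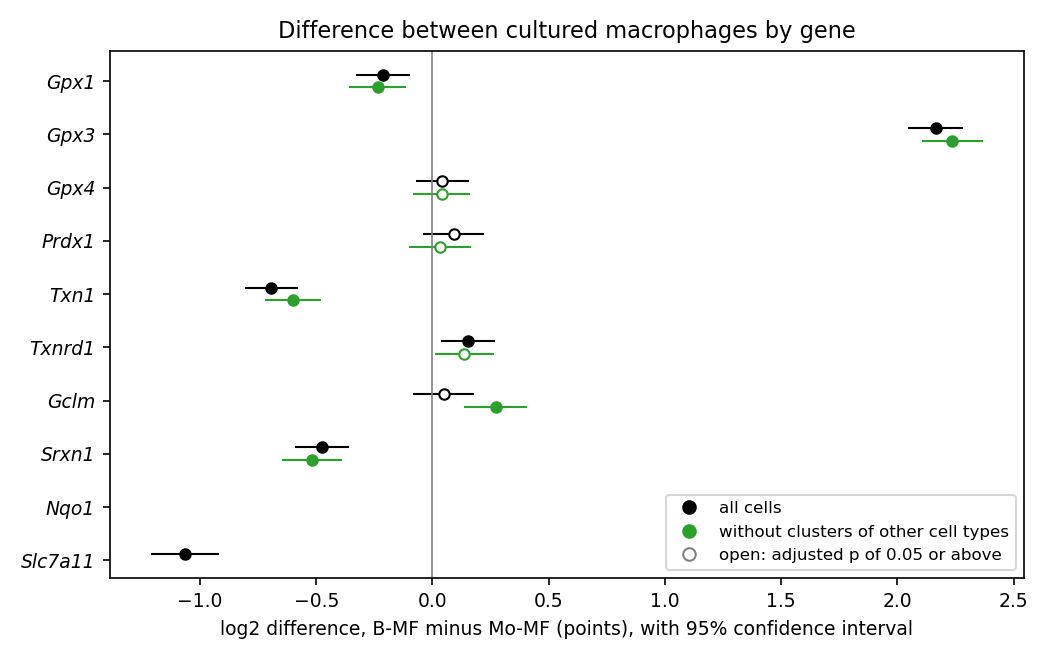
Log2 difference of each gene, B-MF minus Mo-MF (points), with its 95% confidence interval from limma, over all cells (black) and without the clusters of other cell types (green), where filled points had an adjusted p under 0.05. Gpx3 stands at 2.16 and 2.24, Txn1 at -0.69 and -0.60, and Gclm moves from 0.05 to 0.27. Slc7a11 at -1.07 has no green point and Nqo1 has none at all, because their means were under 0.1.

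Slc7a11 and Gclm, which supply glutathione, and the NRF2 target Nqo1 had a large share of their Mo-MF counts in neutrophil-like cells. Slc7a11 (chr3:49892526-50443614) had means of 0.052 and 0.038 in B-MF, against 0.211 and 0.194 in Mo-MF. The ratio of the group means, B-MF to Mo-MF, was 0.221. The log2 difference was -1.07 (SE 0.06, limma adjusted p = 5.69e-06) and depended on the pseudocount, at -1.97 with 0.01 and -0.20 with 1. Slc7a11 passed the minimum of 0.1 through its Mo-MF libraries alone and was not tested without Mo-MF replicate 1. Neutrophil-like cells made up 9.97% and 9.13% of the Mo-MF cells and held 75.5% and 73.0% of their Slc7a11 counts. In cluster 7, which meets the neutrophil and neutrophil precursor markers, Slc7a11 stood at 2.18 and 2.23, against 0.097 and 0.095 in cluster 3. Without clusters 7 and 9 alone, an alternative chosen after seeing the data, the means were 0.052 and 0.038 in B-MF, against 0.058 in both Mo-MF libraries, which is under the minimum of 0.1 for a test. Without every cluster that met a list of another cell type (6, 7, 9, 13 and 14), they were 0.051 and 0.038 against 0.058 and 0.059.

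Gclm (chr3:122245557-122270732) had means of 1.49 and 1.37 in B-MF, against 1.39 and 1.36 in Mo-MF, which overlapped. The log2 difference was 0.05 (95% confidence interval -0.08 to 0.18, limma adjusted p = 0.535). Cluster 7 had Gclm at 4.29 and 4.38, and the neutrophil-like cells held 22.6% and 21.7% of the Gclm counts of Mo-MF. Without every cluster that met a list of another cell type, Gclm was higher in B-MF, at 1.49 and 1.37 against 1.18 and 1.16, with a log2 difference of 0.27 (SE 0.06, limma adjusted p = 0.00738). Without clusters 7 and 9 alone it was 0.25 (limma adjusted p = 0.00924). Nqo1 (chr8:107388225-107403206) was near 0 in all libraries, at 0.038 and 0.026 in B-MF, against 0.044 and 0.035 in Mo-MF, and was not tested. Of its few counts in Mo-MF, 56.8% and 44.1% came from neutrophil-like cells.

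The wider pathway was read from 8 lists with 143 further genes, of which 102 were tested, and 32 were called higher and 23 lower in B-MF by the same limma fit. Over all genes, 22.6% were called higher and 16.9% lower, and each count that follows stands beside these shares. The balance of these shares turned without B-MF replicate 1, with 2248 genes higher and 2950 lower, and without B-MF replicate 2 it was 3855 and 1680. The median log2 difference over these 102 genes was 0.04, beside 0.02 over all genes tested. Of 19 selenoproteins and genes of selenocysteine synthesis, 8 were higher and 0 lower, with a median of 0.11, and the replicate block gave 9 and 1. All 8 encode selenoproteins, which carry selenocysteine as Gpx1, Gpx3, Gpx4 and Txnrd1 do. Selenow was higher by 0.87 and Selenoh by 0.82 (adjusted p = 6.51e-06 and 1.49e-05). Both are small selenoproteins with a thioredoxin-like fold. Of 18 thioredoxin and peroxiredoxin genes, 8 were higher and 4 lower, with a median of 0.11. The peroxiredoxin of the endoplasmic reticulum, Prdx4, was higher by 0.99 and the sestrin gene Sesn1 by 0.75 (adjusted p = 3.85e-06 and 1.64e-05). The methionine sulfoxide reductase genes Msra and Msrb1 were lower, with log2 differences of -0.81 and -0.71 (adjusted p = 2.89e-05 and 1.78e-05). This list thus held calls on both sides. Without the clusters that met a list of another cell type, 7 were higher and 3 lower.

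Among 27 NRF2 regulators and other NRF2 targets, 6 were higher and 7 lower, with a median of -0.05. Leaving out the clusters that met a list of another cell type gave 7 higher and 8 lower. Nfe2l2, which encodes NRF2 itself, was higher in B-MF by 0.38, and the epoxide hydrolase gene Ephx1 by 1.30 (limma adjusted p = 6.38e-04 and 3.78e-06). The ferritin gene Fth1 and the esterase D gene Esd were lower, at -0.70 and -0.30 (limma adjusted p = 4.04e-05 and 0.00198). Of 11 genes of glutathione synthesis and recycling, 3 were higher and 1 lower, with a median of 0.07. Hagh, of the glyoxalase pathway, was higher by 0.54 and Glrx5 by 0.45, and the glutaredoxin gene Glrx stood at -0.25. Without the clusters that met a list of another cell type, 3 were higher and 0 lower, so Glrx was no longer called. Of 9 glutathione S-transferase genes, 2 were higher (Gstm5 by 0.71 and Mgst3 by 0.56) and 4 lower, led by Gstp1 at -0.58 and Gstm1 at -0.54. Of 4 genes for the removal of superoxide and hydrogen peroxide, 3 were higher, led by Sod2 at 0.39 and Ccs at 0.33, and Sod1 was lower, at -0.17, with a median of 0.29. Of 7 lipid peroxidation genes, Lpcat3 and Alox5ap were higher, by 0.42 and 0.20, and Gch1 and Aifm2 lower, at -0.49 and -0.37.

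Of 7 tested genes of the ATF4 response, 0 were called higher and 4 lower in B-MF, beside 22.6% and 16.9% of all genes, with a median of -0.28. The list held 13 genes, and the others were under the minimum level. Of these, Psat1 and Asns were higher in both B-MF libraries than in both Mo-MF libraries, Trib3 and Phgdh were lower, and Ddit4 and Slc7a5 overlapped. These were named after their values were seen, and none was tested. Psat1 had means of 0.127 and 0.109 in B-MF, against 0.055 and 0.064 in Mo-MF, and Asns 0.097 and 0.086 against 0.077 and 0.071. Trib3 had 0.020 and 0.015 against 0.048 and 0.046. Ddit3, which encodes the stress factor CHOP, had means of 0.566 and 0.542 in B-MF, against 1.66 and 1.68 in Mo-MF, which is a log2 difference of -1.44 (limma adjusted p = 3.48e-07). Atf5 stood at -0.82. Atf4 itself, named after its values were seen, stood at -0.28 (limma adjusted p = 0.00404). Without the clusters that met a list of another cell type, 4 of these 7 genes were again lower, with a median of -0.27.

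Across cells of a culture library, Gpx1, Prdx1 and Txn1 were moderately correlated with each other, and Prdx1 with Srxn1. Of the 45 pairs of members, 4 had a Spearman rho over 0.2 in each of the 4 libraries, and each of these pairs held Prdx1 or Gpx1. Among all pairs of 8150 genes with a mean of at least 0.1, 0.0514% did so, and among pairs of 2083 genes with a mean of at least 1, where depth hides less, 0.543% did. Gpx1, Prdx1 and Txn1 had means of 8.46 or more in every culture library, and Srxn1 stood at 0.709 in B-MF 2. No set of pairs matched to these levels was made. Prdx1 and Txn1 had rho of 0.41 and 0.34 in B-MF, against 0.25 and 0.28 in Mo-MF. Gpx1 and Prdx1 had 0.33 and 0.32 in B-MF, against 0.37 in both Mo-MF libraries. Gpx1 and Txn1 lay between 0.28 and 0.33, and Prdx1 and Srxn1, enzyme and rescuer, at 0.23 in both B-MF libraries and 0.34 and 0.32 in Mo-MF. These are values over 4846 to 5389 cells of a library, whose points share depth and clusters. Prdx1 and Txn1 were also among the leading genes of cluster 8, which met no marker list. It held 27 and 14 B-MF cells and 233 and 225 Mo-MF cells, and the pairs were not recomputed without it. With the number of detected genes held fixed, 3 of the 4 pairs stayed over 0.2 in every library, the exception being Prdx1 and Srxn1, which fell to 0.16 in the lowest library.

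Gpx3 was weakly correlated with this group in B-MF and hardly in Mo-MF. Gpx1 and Gpx3 had rho of 0.20 in both B-MF libraries and -0.04 and -0.07 in Mo-MF, and Prdx1 and Gpx3 had 0.18 and 0.14 against -0.07 and -0.08. Prdx1 and Gclm had 0.31 and 0.26 in B-MF, against 0.14 and 0.15 in Mo-MF. Without the clusters that met a list of another cell type, that pair rose to 0.25 and 0.24 in Mo-MF. Gpx3 had a count in 32.7% and 31.7% of Mo-MF cells, against 76.5% and 72.8% of B-MF cells, and cells without a count bound rho. The difference in rho between cultures was not tested, nor was the part of these shares in it. For low genes such as Nqo1 and Slc7a11 rho is bounded by the many cells without a count, and no pair of theirs passed 0.2 in all 4 libraries.

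**Figure D3:**
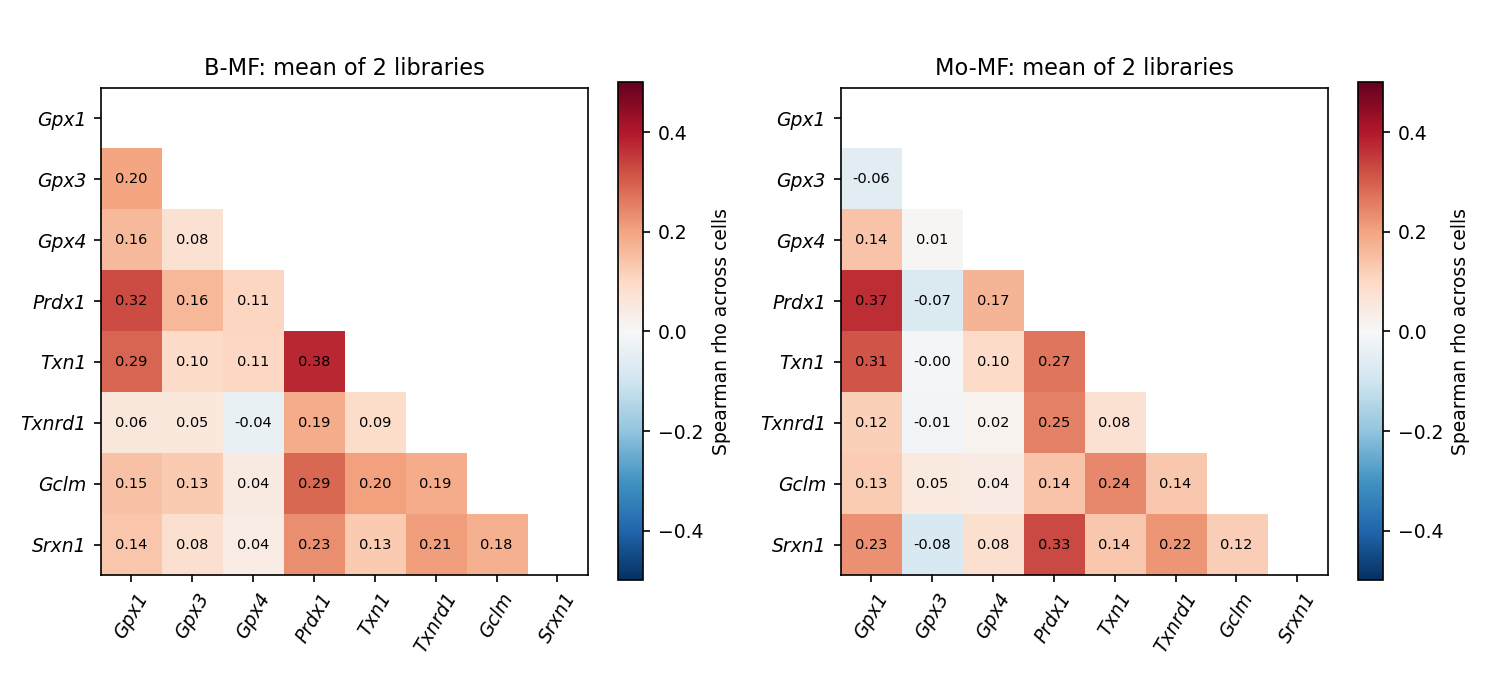
Spearman rho across cells for pairs of 8 genes with a mean of at least 0.1 in each culture library, averaged over the 2 libraries of B-MF (left) and of Mo-MF (right), with the value printed in each field. Prdx1 and Txn1 reach 0.38 in B-MF, against 0.27 in Mo-MF, and the Gpx3 fields are positive in B-MF and between -0.08 and 0.05 in Mo-MF.

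The genes most like each member across cells were ranked by the mean rho over the 4 culture libraries among 8149 other genes. This mean runs over both cultures. The rho of Gpx3 with Gpx1 averaged 0.20 over the B-MF libraries, against -0.06 over the Mo-MF libraries, and that with Prdx1 0.16 against -0.07. Txn1 ranked Prdx1 first (0.32) and Gpx1 (0.30) behind the calcium-binding protein gene S100a11. Esd, whose product cleaves S-formylglutathione, ranked first for Txnrd1 (0.24), Gclm (0.24) and Srxn1 (0.29). Prdx1 ranked second for both Txnrd1 and Srxn1, followed by Fam129b for Txnrd1 and by the ferritin gene Ftl1 for Srxn1, and Gclm had the pentose phosphate gene Taldo1 and then Txn1. Prdx1 itself ranked Lgals3 (0.59), Capg (0.50) and Akr1a1 (0.50) highest, with Gpx1 at rank 31, Txn1 at 41 and Srxn1 at 63. Gpx1 ranked Crip1 (0.51), Mmp12 (0.48) and Ftl1 (0.45) highest, with Prdx1 at rank 13 and Txn1 at 23. Gpx4 followed Trem2, Ftl1 and Cyba at 0.18 to 0.22. Gpx3 followed the iron exporter gene Slc40a1 at 0.22, then S100a1 and Npy at 0.16, all of them weak values.

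In the tumor, the members divided between the 2 large cell classes. Slc7a11, Txn1 and Gclm were higher in neutrophil-like cells in 4 of 4 libraries, and Prdx1, Gpx1, Gpx4, Txnrd1 and Srxn1 were higher in monocyte/macrophage-like cells in 4 of 4. The tumor libraries have 1 condition, so these are descriptions without a test. Of 5849 genes with a sufficient level, 19.5% were higher in neutrophil-like cells in all 4 libraries and 70.8% were lower, beside 3 and 5 of the 8 members compared. Median corrected counts per cell were 7483 to 7518 in neutrophil-like and 8510 to 8548 in monocyte/macrophage-like cells. When levels were given per 10000 corrected counts, Srxn1 was higher in neutrophil-like cells in 2 of 4 libraries and no longer had 1 direction, and the order of the other 7 members was as before in all 4 libraries. At a clustering resolution of 1, Srxn1 was higher in neutrophil-like cells in 1 of 4 libraries.

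Slc7a11 had means of 4.17, 2.42, 3.68 and 3.76 in the neutrophil-like cells of libraries 2 to 5 and of 1.99, 1.59, 2.17 and 2.02 in the monocyte/macrophage-like cells. The classes did not overlap, with ratios of 1.52 to 2.09 within a library. B-like cells, of which library 2 had only 8, had Slc7a11 at 0.039 to 0.27 in libraries 3 to 5, Gclm at 0.053 to 0.14, Prdx1 at 1.47 to 2.19 and Txn1 at 2.27 to 2.39. The part of free RNA in these and in the class means was not tested. Neutrophil-like cells held 55.9% to 74.8% of the Slc7a11 counts. Gclm had 0.769, 0.731, 0.732 and 0.840 in neutrophil-like cells and 0.278, 0.338, 0.317 and 0.289 in monocyte/macrophage-like cells, with ratios of 2.16 to 2.91. Txn1 had 9.12, 9.84, 9.15 and 9.64 against 6.37, 6.33, 6.54 and 6.85.

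Prdx1 had 1.03, 0.815, 1.09 and 1.05 in neutrophil-like cells and 4.48, 3.66, 4.30 and 4.19 in monocyte/macrophage-like cells, with ratios of 0.223 to 0.254, the lowest of the 8 members. The neutrophil-like values lay under those of B-like cells. Gpx1 had 3.45, 3.68, 4.01 and 3.75 against 8.04, 9.17, 8.74 and 8.51. Gpx4 ratios were 0.425 to 0.576 and Txnrd1 ratios 0.657 to 0.891. Srxn1 ratios came near 1, from 0.801 to 0.995. Gpx3 was low in both classes, at 0.007 to 0.015 and 0.052 to 0.074, and its levels of 2.72 or more in cultured B-MF had no counterpart in any tumor cluster of at least 20 cells, where the highest mean was 0.24. Among smaller clusters, 11 fibroblast-like cells of library 4 had a mean of 1.55. The tables were normalized separately and to different depths, so these levels are only set side by side. Nqo1 was at 0.009 or under in both classes.

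**Figure D4:**
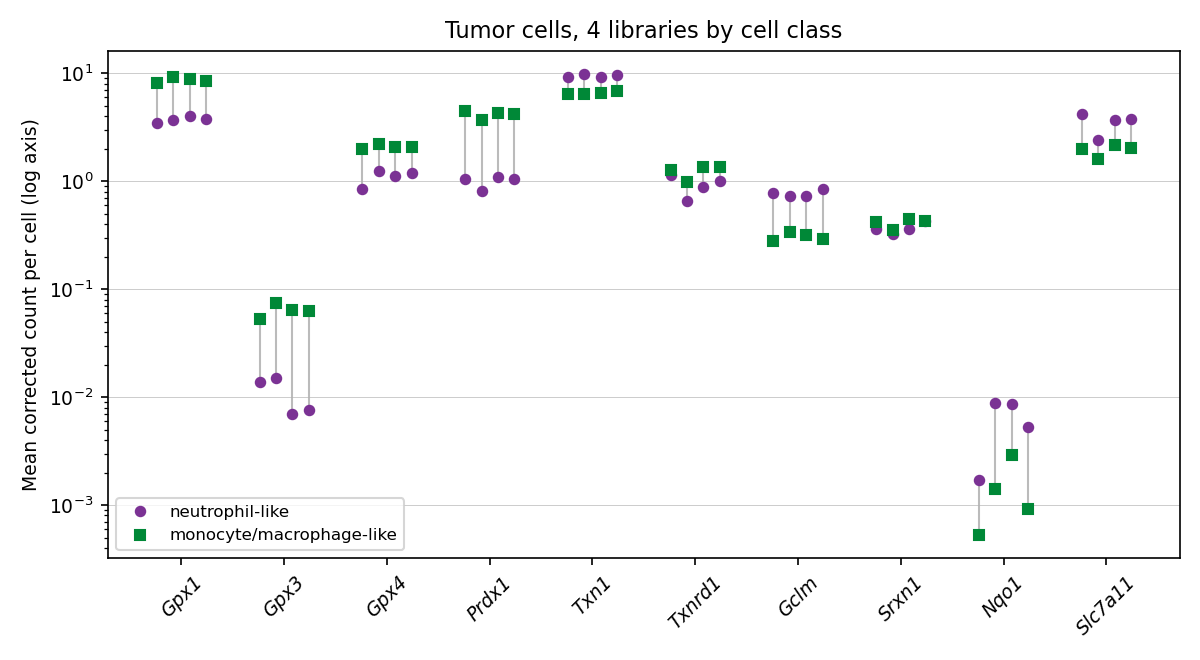
Mean corrected count per cell (log axis) of each gene in neutrophil-like (circles) and monocyte/macrophage-like cells (squares) of the 4 tumor libraries, joined within a library. For Slc7a11, Gclm and Txn1 every circle lies above its square, and for Prdx1, Gpx1 and Gpx4 every square lies above its circle.

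Within a class the clusters differed as well. Among monocyte/macrophage-like cells, Gpx1 was highest in cluster 3, led by Tmem176b and Ccr2, at 13.6 to 14.6, and lay between 6.09 and 8.30 in clusters 1, 5 and 6. Prdx1 was highest in cluster 5, led by the complement genes C1qc and C1qa, at 5.06 to 8.34, and lay between 3.12 and 4.68 in clusters 1, 3 and 6. Slc7a11 stood at 2.37 to 3.31 in cluster 1, led by Sdc1, Inhba, Thbs1 and Arg1, which overlaps the means of the neutrophil-like class, and at 0.77 to 1.07 in cluster 3. Among neutrophil-like cells, Slc7a11 was highest in cluster 2, led by the interferon-induced genes Ifit1 and Isg15, at 3.92 to 5.28. Gclm and Gpx1 were highest in cluster 7, led by Ngp, Camp and Ltf, which encode granule proteins of immature neutrophils, at 1.04 to 1.68 and 8.40 to 10.9. Cycling cluster 9 had Gpx1 at 14.7 to 21.6 in the 3 libraries with at least 20 of its cells.

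The 3 pairs of members with a rho over 0.2 across all tumor cells in every library had lower values within each class. Over all cells, Gpx1 and Prdx1 had rho of 0.32 to 0.37 and Gpx1 and Gpx4 of 0.29 to 0.38, which fell to 0.08 to 0.16 and 0.16 to 0.24 with the number of detected genes held fixed. Within monocyte/macrophage-like cells, the only pair over 0.2 in all 4 libraries was Gpx1 and Gpx4 at 0.26 to 0.32, and Gpx1 and Slc7a11 ran against each other at -0.28 to -0.18. Within neutrophil-like cells no pair passed 0.2 in all libraries, and Txnrd1 and Slc7a11 had 0.14 to 0.21. The pair of Prdx1 and Txn1, at 0.25 to 0.41 in culture, had -0.14 to -0.07 over all tumor cells.

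Open chromatin at the starts of these genes was read from the peak lists of the B-cell precursors, cells that had not been cultured. A peak over the window of 250 bases before to 50 after a start was listed in all 12 libraries for 6 of the 10 members (Gpx1, Gpx4, Prdx1, Txn1, Txnrd1 and Gclm), against 35.0% of 27025 genes. All 10 members had a peak in all 6 BM libraries, as did 10766 genes (39.8%). The other 4 members lacked one in some or all spleen libraries, a pattern of 1296 of these 10766 genes, or 4.80% of all genes. Gpx3 and Slc7a11 had a peak in all 6 BM and in 0 of 6 spleen libraries, a pattern of 640 of these 10766 genes, or 2.37% of all genes. Srxn1 had a peak in 1 spleen library and Nqo1 in 3. Spleen lists were shorter throughout, with 43407 to 50392 peaks against 65832 to 76530 in BM, and the part of this in the missing peaks was not tested. The depth of single libraries is unknown.

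The fold enrichment of the Gpx3 peak was 8.07, 7.65 and 9.55 in CSF1R+ and 8.77, 7.10 and 6.40 in CSF1R- cells of BM. For Slc7a11 it was 8.94, 9.90 and 8.59 against 9.53, 9.25 and 9.51, over the window whose ATF4 cores are printed above. The CSF1R+ and CSF1R- values overlapped for both. At Gclm, the peak that overlapped the start window had 21.8 to 24.2 in BM and 28.4 to 32.6 in spleen. Whether it covers the antioxidant core in that window was not checked. Peaks at Gpx4 (17.3 to 20.4 and 24.3 to 25.6) and Txn1 (15.5 to 16.5 and 18.6 to 22.1) were also higher in spleen, as was the median of all peaks (7.34 to 8.59 and 9.22 to 10.1). The Txnrd1 start whose antioxidant core is printed above went the other way, at 8.78 to 10.8 in BM and 6.93 to 8.26 in spleen, while the last of its listed starts overlapped, at 9.79 to 10.7 and 9.48 to 13.0. Prdx1 overlapped, at 16.5 to 21.0 in BM and 14.8 to 18.3 in spleen.

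**Figure D5:**
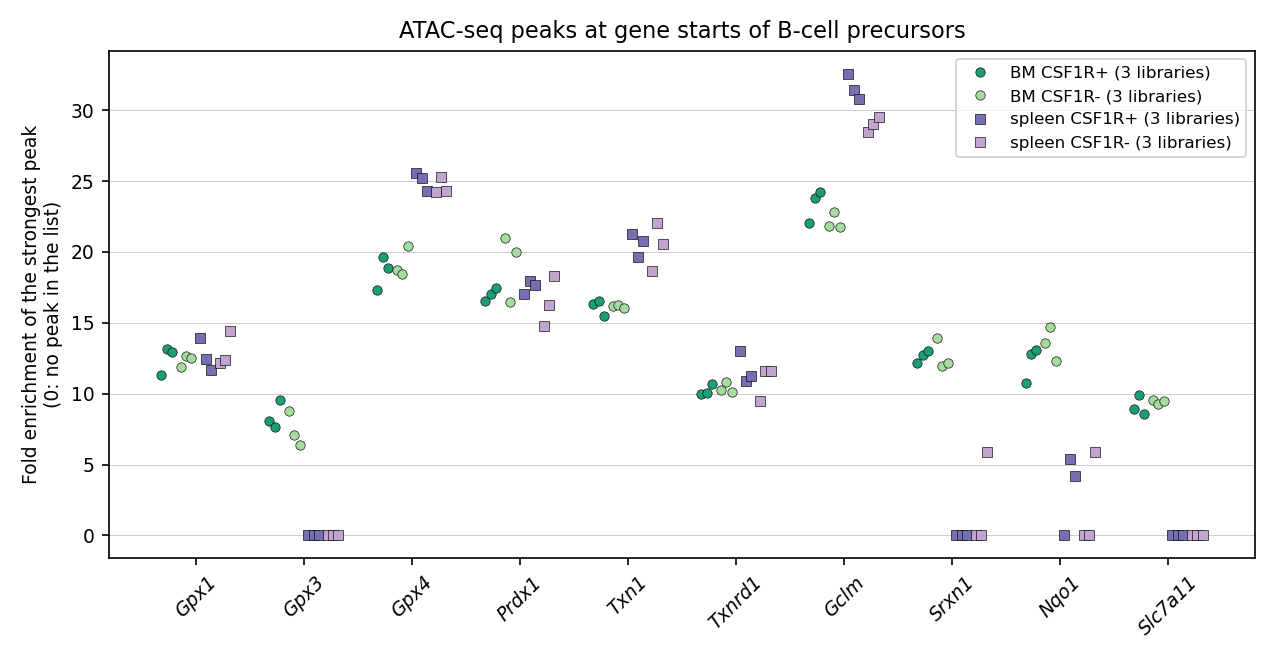
Fold enrichment of the strongest ATAC-seq peak over a start window of each gene in the 12 libraries of B-cell precursors, with 0 where the list had no peak. Gpx3 and Slc7a11 have values from 6.40 to 9.90 in BM (circles) and 0 in all spleen libraries (squares), whereas Gclm reaches 32.6 in spleen.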

How the data were processed

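The members and lists were chosen with earlier results of these data known. The authors deposited scRNA-seq values as the natural log of 1 plus SCTransform-corrected counts (10x 3′ libraries counted with Cell Ranger, build mm10, with a stated minimum of 1000 detected genes per cell, which 3 cells of tumor library 3 and 1 of library 5 did not reach), and 100% of values above 0 were whole within 1e-06 after conversion back. The files held 10563 B-MF and 10235 Mo-MF cells, the numbers that the study states. SCTransform alters counts by model, so count tests were not used. Txn1 and Gpx4 have processed pseudogene copies, and how reads were split was not checked.

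For ATAC-seq, the authors trimmed reads with cutadapt, aligned them with BWA to mm10 and called peaks with MACS2 in each library. Per the file headers and values, the deposited lists give fold enrichment (a ratio over background) and the −log10 p-value and q-value of a peak. The union list holds the same peaks and was not used.

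Means per library were compared with limma 3.58.1 (R 4.3.3), at an adjusted p under 0.05. On simulated libraries of the 2 cultures (8633 genes, 200 of them changed), 100% of the changed genes were recovered at log2 differences of 0.5 and of 1. Of the calls, 9.09% were unchanged genes, above the 0.05 that the threshold aims at. The noise was drawn from the spread that limma fitted, with no effect shared by a library, so recovery at these sizes was largely set in advance. The data themselves had 3413 called genes, far more than the simulation changed. Cells were clustered with leidenalg 0.10.2 (30 components, 20 neighbours, 2000 variable genes without members and pathway genes, resolution 0.5). A cluster met a marker list with at least 3 and no fewer than 50% of its detected markers above the average over clusters, a detail chosen after seeing the data, and no doublet caller was run. Named genes were all members, the 2 called genes with the largest difference each way per list, and the 3 genes most correlated with each member. Atf4, Psat1, Asns, Slc7a5, Trib3, Phgdh and Ddit4 were added after their values were seen. Sequences are from RefSeq, GRCm38.p6, and all 10 members matched, with 15 starts, and the peaks use the same build. Gene positions are from GENCODE vM21. Alternatives changed the pseudocount, filter, scaling, cells, block and libraries.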

Additional observations from a re-analysis of the deposited data

Results flagged for a closer look

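In 30 groups of 4 tumor libraries (each of the 10 genes over all cells and in both large classes), 1 value lay apart from the others by Dixon's ratio at its 95% critical value, a rate at which chance flags about 1 in 20 groups. Slc7a11 had a mean of 2.04 corrected counts per cell over all cells of library 3, against 2.75 to 2.89 in the other libraries. Library 3 was also lowest for Slc7a11 in neutrophil-like cells, at 2.42 against 3.68 to 4.17, and in monocyte/macrophage-like cells, at 1.59 against 1.99 to 2.17. It had the highest share of neutrophil-like cells, at 63.1%. Slc7a11 was higher in neutrophil-like than in monocyte/macrophage-like cells in 4 of 4 libraries, library 3 included. The part of the cell classes in the value was not tested.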

How the results depend on the processing

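Gpx3, Txn1 and Srxn1 kept their call and direction in every alternative that gave a value. Gclm, which was not called, turned from 0.05 to -0.0050 on the log2 scale without B-MF replicate 1 (range -0.0050 to 0.10 over the libraries left out), and no called member changed direction. A pseudocount of 1 moved the log2 difference of Gpx3 to 1.29, of Srxn1 to -0.25 and of Slc7a11 to -0.20, and means of ln values moved them to 1.06, -0.21 and -0.09, with Gpx1 at -0.14 and Txnrd1 at 0.07. Gpx1 lost its call without either Mo-MF library, and Txnrd1 in 7 of 17 alternatives. Prdx1 passed with a pseudocount of 1, with means of ln values and without B-MF replicate 1, and Gclm without other cell types, without neutrophil-like clusters and without B-MF replicate 2. Leaving out 1 library moved the number of called genes from 3413 (1955 higher, 1458 lower) to between 1991 (1128 and 863, without Mo-MF replicate 1) and 5535 (3855 and 1680, without B-MF replicate 2), and of called members from 6 to between 3 and 7, with the lone library assumed to vary like the other group. A minimum mean of 1 left 1784 called genes of 2277 tested. Without B-MF replicate 2, 7 pairs of members passed 0.2 in place of 4, in the range 4 to 7 over all libraries left out. With the replicate block, 3908 genes and 6 members were called. Replicate numbers did not pair the samples by any label, and the correlation of their deviations was 0.126 over 8633 genes. Without cluster 8, and without clusters 7 and 9, both chosen after seeing the data, 3380 and 3267 genes and 6 and 5 members were called. The other totals stayed within 1.5 times of the reported ones. With 2 libraries per culture, small differences such as that of Txnrd1 rest on few values.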
